A study of Mus musculus with 6 samples.

Results

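The strain difference between SAMP8 and SAMR1 mice given water was described across the cerebral cortex transcriptome, with 4 of the 6 arrays of the series. SAMP8 is a senescence-accelerated mouse strain that develops early deficits of learning and memory, and SAMR1 is a related senescence-resistant strain used as the normal ageing control. Both groups were male and 16 weeks old by the labels, with 2 arrays a group. They received water by mouth for 30 days and through 8 days of behavioral tests. In the paper, 16 weeks reads as the age before acclimatization and treatment, so the tissue would be from older mice. By the paper, the drinking water of all mice also held BrdU, a label of dividing cells, for part of that time. A further group, SAMP8 mice fed sugarcane top ethanolic extract (STEE) at 20 mg/kg over the same days, was used here only as a side-by-side value. No transgene or engineered allele separates the groups, which differ in their whole strain background, and at a single age a lasting strain difference and an earlier course of ageing cannot be told apart.

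Signals came from Affymetrix mouse genome PM array strips, on which the short probes of a probe set together read 1 transcript. Each of 45077 probe sets had the authors' mean log2 signal of each group, and the strain difference is the mean of SAMP8 given water (SAMP8 control) minus that of SAMR1, so that 1 on this scale is a doubling. Because only group means were used, no spread between mice, standard error or test stands behind any value below, and a difference was counted when it reached 0.5 in either direction, a fold of about 1.4. A gene was read from its probe set of highest signal, which gave 20750 genes with a single symbol, and the signals of different genes were not compared as levels.

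Mouse strains differ at many loci, and a variant can alter the expression of a single gene, while genes that share a cell type or a pathway move as a group when the makeup or the state of the tissue differs. In cortex the main groups are excitatory neurons, inhibitory interneurons, astrocytes, oligodendrocytes that wrap axons in myelin, microglia and vessels. Stressed cells use separate programmes, among them heat shock factors for misfolded proteins in the cytosol, the unfolded protein response for the endoplasmic reticulum (ER), and interferon signalling for viral and other danger signals.

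Most of the transcriptome lay close to equality between the strains. The median absolute difference of a gene was 0.07 and its 99th percentile was 0.54, with 9868 genes higher and 10087 lower in SAMP8 control. Past 0.5, 336 probe sets (0.745%) were higher and 259 (0.575%) lower in SAMP8 control, or 1.32% together. Counted by gene, 139 (0.67%) were higher and 116 (0.559%) lower. Between STEE-fed SAMP8 and SAMP8 control, the other pair of group means, which shares the SAMP8 control arrays, 0.164% of the probe sets were 0.5 or more apart.

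**Figure D1:**
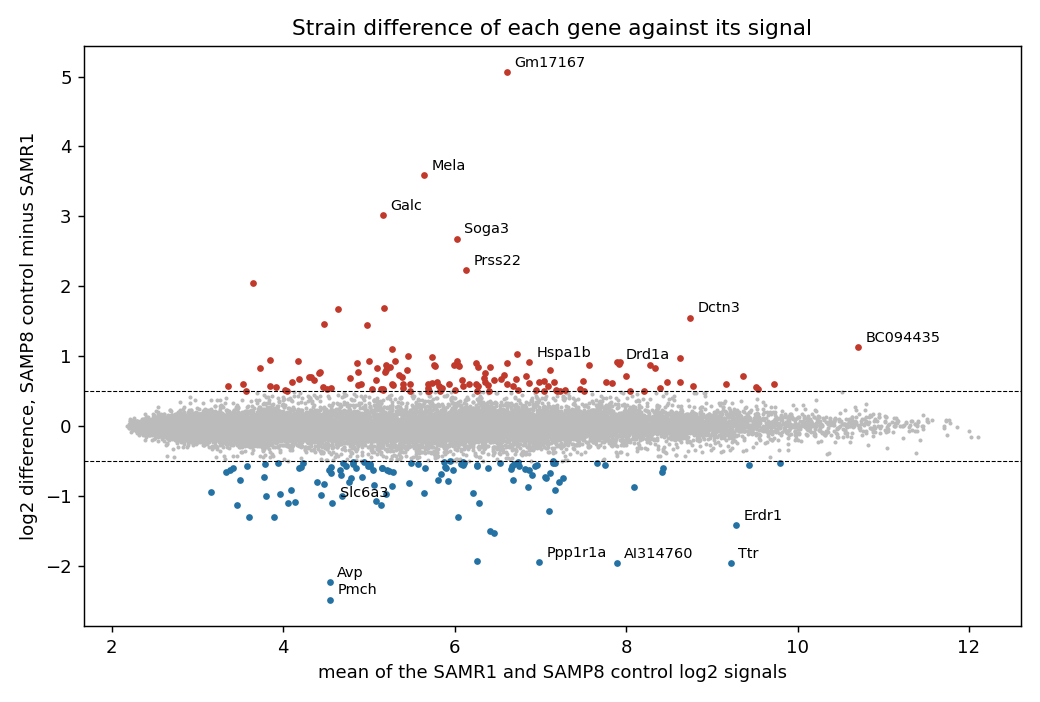
Log2 difference of each of 20750 genes, SAMP8 control minus SAMR1, against the mean of both log2 signals. Points past the dashed lines at 0.5 are red (139 genes higher in SAMP8 control) or blue (116 lower), and labelled genes such as Gm17167 (5.06) and Pmch (-2.48) lie far outside the grey band.

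The largest differences were single genes that went from near the lower end of the scale in one strain to a clear signal in the other. Gm17167, a predicted gene (probe set 1457324_PM_at), had a mean log2 signal of 4.08 in SAMR1, 9.14 in SAMP8 control and 9.63 with STEE, so that SAMP8 control was 5.06 higher, a fold of 33.4. Mela, annotated as melanoma antigen, read 3.85 in SAMR1 and 7.44 in SAMP8 control, a log2 difference of 3.59. All 3 of its probe sets were higher in SAMP8 control, by 1.25 to 4.42, and the identifiers of all 3 mark probes that also match other transcripts. Galc encodes the lysosomal galactosylceramidase that breaks down a myelin lipid, and its probe set of highest signal read 3.65 in SAMR1 and 6.67 in SAMP8 control, 3.02 higher. Soga3 read 4.69 and 7.37, a difference of 2.68, and the serine protease gene Prss22 read 5.02 and 7.25, a difference of 2.23.

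Further genes higher in SAMP8 control covered unrelated functions. Dctn3, a subunit of the dynactin complex that links dynein to its cargo, was already at 7.97 in SAMR1 and read 9.52 in SAMP8 control, 1.55 higher. Vps52, which helps tether vesicles at the trans-Golgi network, was higher by 1.46, and Adat2, which edits adenosine in transfer RNA, by 1.45. Among genes of high signal, BC094435 read 10.14 in SAMR1 and 11.27 in SAMP8 control. Invs, whose product inversin lies in primary cilia, was higher by 1.01. The matrix-associated gene Abi3bp was higher by 0.99 and Serpinf1, which encodes pigment epithelium-derived factor, by 0.93. For Vps52, BC094435 and Abi3bp the identifier of the probe set read here marks probes that also match other transcripts. The other Abi3bp probe set, without that mark, was higher by 0.87.

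Genes lower in SAMP8 control were led by neuropeptides and by poorly described transcripts. Avp, which encodes the hormone vasopressin, read 5.66 in SAMR1 and 3.43 in SAMP8 control, a log2 difference of -2.23. Pmch, the precursor of melanin-concentrating hormone, read 5.79 and 3.31, a difference of -2.48, which was the lowest of all genes, although its mean over the groups was below the median signal of 4.15. Ttr, the thyroxine and retinol carrier made by the choroid plexus, read 10.2 in SAMR1, 8.24 in SAMP8 control and 9.33 with STEE. Ppp1r1a, an inhibitor of protein phosphatase 1, read 7.96 in SAMR1 and 6.02 in SAMP8 control, a difference of -1.94.

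Several transcripts without a settled function were lower by similar amounts. AI314760 differed by -1.96, A430102J17Rik by -1.92 and Rhox4b, a homeobox gene of a reproductive cluster, by -1.53. Erdr1 read 9.99 in SAMR1 and 8.58 in SAMP8 control, while its other probe set differed by -0.15. The identifiers of the probe sets read for Rhox4b and Erdr1 mark probes that also match other transcripts. Slc18b1, a vesicular polyamine transporter, differed by -1.29, the calcium-binding protein gene Cabp7 by -1.10 and the ciliary gene Lca5 by -0.98. Genes of mitochondrial proteins were also among them, with Hint2 at -0.95 and Auh, an enzyme of leucine breakdown, at -0.91.

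The STEE-fed SAMP8 mean lay within 0.3 of the SAMP8 control mean for 18 of the 20 genes highest and 19 of the 20 lowest in SAMP8 control. The exceptions were Gm17167, 5330430B06Rik and Ttr. 5330430B06Rik read 4.72 in SAMR1, 5.83 in SAMP8 control and 4.18 with STEE, and Ttr lay 1.09 above SAMP8 control in STEE-fed SAMP8. For the other genes shown, both SAMP8 means stood together. Their distance from SAMR1 follows from the choice of these genes by that difference. Over all probe sets only 0.164% were 0.5 or more apart between the SAMP8 groups. The share of all genes within 0.3 was not counted, so the closeness was not shown to be particular to these genes.

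**Figure D2:**
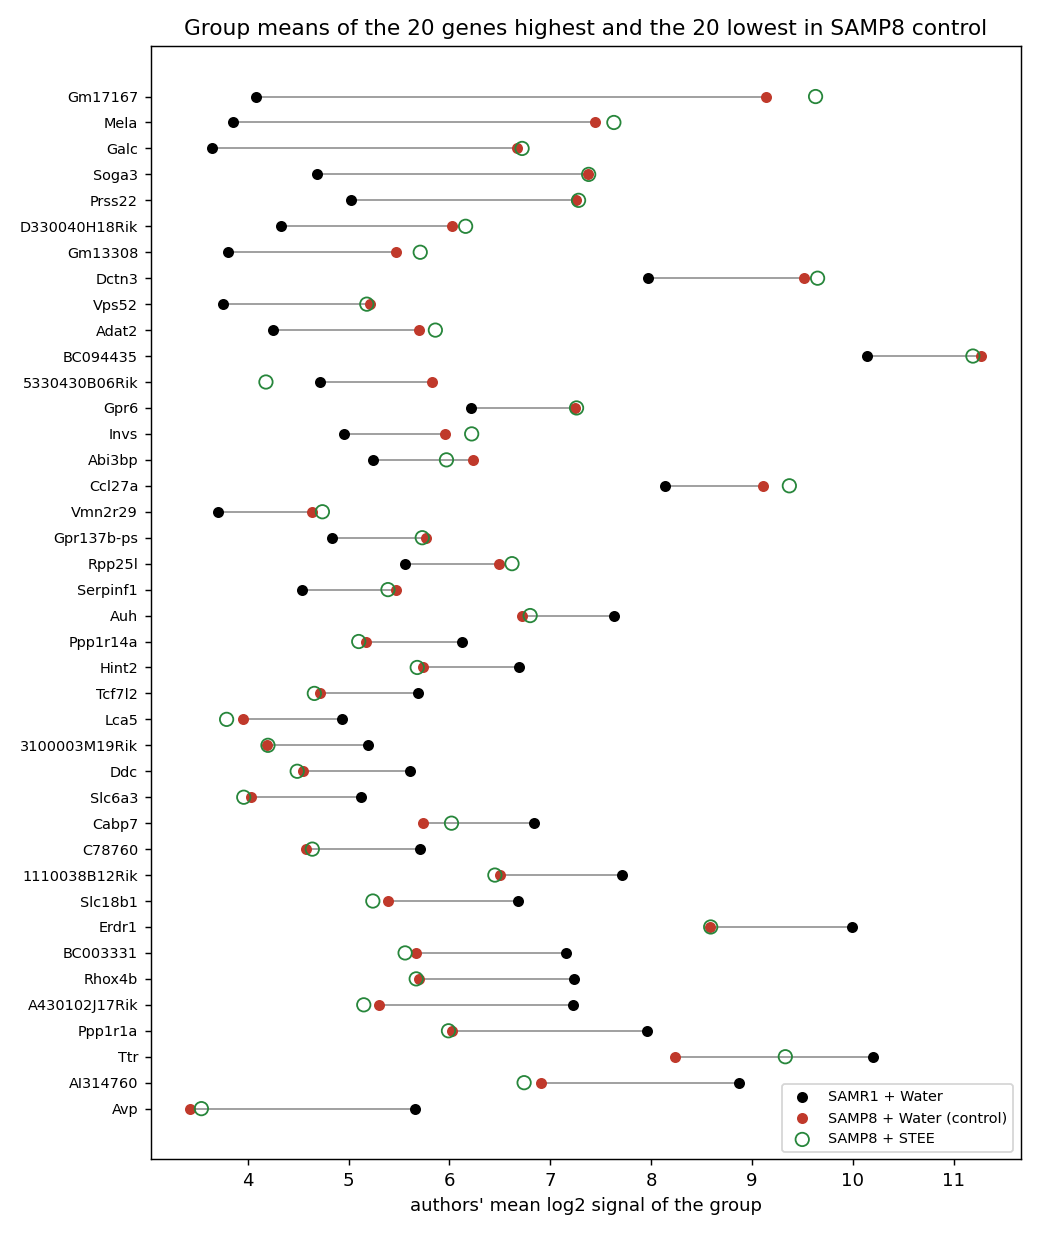
Authors' mean log2 signal (horizontal axis) of SAMR1 (black), SAMP8 control (red) and STEE-fed SAMP8 (green ring) for the 20 genes highest and the 20 lowest in SAMP8 control; lines join SAMR1 and SAMP8 control. The ring lies within 0.3 of the red point for 18 of the higher and 19 of the lower genes.

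Marker genes of brain regions differed between the strains as well. The gene lists here and below were chosen with earlier results of these data known. The share of all genes beside a count is therefore given for scale and is not a test. All 11 measured genes typical of the striatum, the region that lies beneath the cortex, were higher in SAMP8 control, by 0.32 to 1.03 with a median of 0.72, and 7 of 11 were past 0.5 (6 by the median over probe sets), against 0.67% of all genes. Gpr6, an orphan receptor of striatal projection neurons, read 6.21 in SAMR1, 7.24 in SAMP8 control and 7.26 with STEE. The dopamine receptor gene Drd1a read 7.47, 8.36 and 8.36 in the same order, and Ppp1r1b, which encodes the dopamine-regulated phosphatase inhibitor DARPP-32, read 7.13, 8.00 and 7.97. Among the others past 0.5 were Rarb (0.85), the enkephalin precursor Penk (0.72) and the phosphodiesterase Pde10a (0.61, or 0.34 as the median over its probe sets), while Tac1 (0.43), Adora2a (0.40), Drd2 (0.35) and Rgs9 (0.32) did not reach it.

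Markers of the thalamus and hypothalamus went the other way. Of 13 measured, 11 were lower in SAMP8 control, with a median of -0.25, and 5 were past -0.5, against 0.559% of all genes. Beside Pmch and Avp these were Tcf7l2 (-0.97), a Wnt effector that marks adult thalamus, the protein kinase Prkcd (-0.78) and the oxytocin gene Oxt (-0.54). The SAMR1 mean of Oxt was 6.35 and the SAMP8 control mean 5.81, and the hypothalamic peptides Hcrt (-0.10) and Trh (0.06) were near equality. Hippocampal markers were lower for 8 of 9, with a median of -0.15, led by the dentate gyrus factor Prox1 (-0.76) and Dsp (-0.56). Both genes were below the median signal in both strains, and the medians over their probe sets were -0.15 and -0.40.

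In tissue of this kind, fewer cells of a type and less RNA per cell cannot be told apart, nor can a different share of neighbouring regions in the dissected piece. The part of these markers in the other differences was not tested. The labelled tissue itself was present in each group: the cortical layer genes Tbr1 (8.12 in SAMR1, 8.28 in SAMP8 control), Cux2 (8.00 and 7.73) and Bcl11b (9.13 and 9.31) were all above the median signal, and none of 17 measured layer genes was past 0.5, with a median difference of 0.10.

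**Figure D3:**
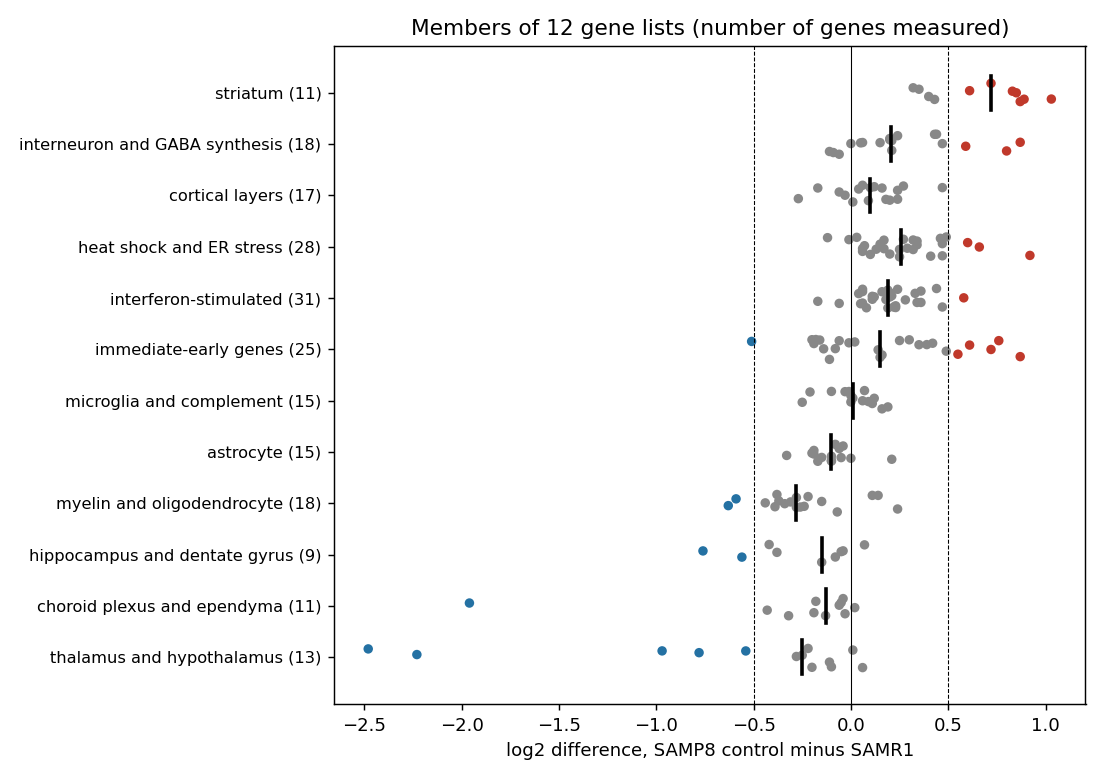
Log2 difference, SAMP8 control minus SAMR1, of the measured members of 12 gene lists (points, red or blue past 0.5), with a black bar at each list's median. All 11 striatal genes lie to the right of 0, and 11 of 13 thalamic and hypothalamic genes to the left.

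Transcripts of dopamine handling were lower in SAMP8 control. Slc6a3, the dopamine transporter, read 5.12 in SAMR1, 4.03 in SAMP8 control and 3.96 with STEE, a strain difference of -1.09. Ddc, which makes dopamine and serotonin from their precursors, read 5.61 and 4.55, a difference of -1.06, and Slc18a2, the vesicular monoamine transporter, read 3.63 and 2.69. Th, the rate-limiting enzyme of dopamine synthesis, differed by only -0.11 (3.92 and 3.81), and the second probe set of Ddc by 0.03. The breakdown enzymes Maoa (-0.11) and Maob (0.11) and the serotonin transporter Slc6a4 (-0.01) were close to equality. Over all 27 monoamine genes measured, the median was -0.01, with 1 gene (Drd1a) past 0.5 and 3 past -0.5, against 0.67% and 0.559% of all genes.

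Interneuron genes, and a list of neuropeptide genes without the hypothalamic ones above, leaned higher in SAMP8 control. Of 18 interneuron and GABA synthesis genes, 14 were above 0, against 47.6% of all genes, and 3 were past 0.5, against 0.67%, with a median of 0.20. Vip, the peptide of a class of interneurons that inhibit other interneurons, read 7.84 in SAMR1, 8.71 in SAMP8 control and 8.85 with STEE. Crh, corticotropin-releasing hormone, was higher by 0.80 and the interneuron transcription factor Dlx1 by 0.59. The calcium buffers Pvalb (-0.09) and Calb2 (-0.11) were among the 3 members below 0. Of 22 neuropeptide and secretory genes, 19 were above 0 (median 0.19). The 3 past 0.5, Vip, Crh and Penk, were members of the interneuron or striatal lists as well. Pmch (-2.48), Avp (-2.23) and Oxt (-0.54) were counted with the hypothalamic markers and not among these 22, so neuropeptides as a whole did not lean 1 way. Among glutamate release genes, Slc17a6, the vesicular glutamate transporter typical of thalamic neurons, was lower by 0.73 in SAMP8 control while Slc17a7, the one typical of cortical neurons, differed by 0.05.

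Myelin genes leaned lower in SAMP8 control. Of 18 measured, 15 were below 0, against 48.6% of all genes, with a median of -0.28, and 2 were past -0.5, against 0.559%. Mog, a glycoprotein of the outer myelin surface, read 6.30 in SAMR1, 5.67 in SAMP8 control and 5.85 with STEE, and Aspa, the enzyme that splits N-acetylaspartate in oligodendrocytes, read 6.69, 6.10 and 5.92. Mobp (-0.39), Cnp (-0.34) and Mag (-0.31) were lower by less, while Mbp, the myelin basic protein gene, was at -0.15 at its probe set of highest signal and had a median of -0.355 over its 8 probe sets. The lineage factors Olig1 (0.11) and Olig2 (0.24) were on the other side of 0, and 6 precursor genes had a median of -0.02.

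Astrocyte and microglia markers differed less. Of 15 astrocyte genes, 13 were below 0, with a median of -0.10 and none past 0.5. Gfap, the filament of reactive astrocytes, was the single astrocyte gene above 0 (6.11 in SAMR1, 6.32 in SAMP8 control). Microglia and complement genes had a median of 0.01 over 15 genes, again with none past 0.5. Choroid plexus genes were below 0 for 10 of 11, but only Ttr was past -0.5, and Kcnj13 (-0.43), Otx2 (-0.32), Aqp1 (-0.13), Folr1 (-0.04) and Kl (0.02) had signals below 4.15 in every group. Vessel and pericyte genes had a median of -0.01 over 14 genes, with 2 past 0.5, against 0.67% of all genes. Abcb1a, the P-glycoprotein pump of the blood-brain barrier, read 4.41 in SAMR1 and 5.32 in SAMP8 control, and Ly6a was higher by 0.61. The tight junction gene Cldn5 differed by -0.28. Rgs5 differed by -0.01 at its probe set of highest signal, with a median of 0.535 over its 4 probe sets.

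Genes of protein folding stood higher in SAMP8 control as a group. Of 28 heat shock and ER stress genes, 26 were above 0, against 47.6% of all genes. Their median was 0.26, against a median of 0.00 over all genes. Hspa1b, an inducible chaperone of the Hsp70 family, read 6.41 in SAMR1, 7.33 in SAMP8 control and 6.95 with STEE, and its other probe sets were higher by 1.21 and 1.36. Its near-identical copy Hspa1a was higher by 0.32, and probes may pick up both transcripts. Pdia6, a disulfide isomerase of the ER, was higher by 0.66 and the small heat shock protein gene Hspb1 by 0.60.

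These 3 of 28 were the members past 0.5, against 0.67% of all genes, and several ER members lay just under it. Sdf2l1 was higher by 0.49, the ER chaperone Hspa5 (BiP) by 0.47, the secreted ER stress protein Manf by 0.47 and the transcription factor Xbp1 by 0.34. The constitutive chaperones Hspa8 and Hsp90aa1 were higher by 0.06 each. Hspb8 (-0.12) and Cryab (-0.01) were the members below 0.

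The start-site regions of 4 of these genes are shown because they hold the known response elements of both programmes. Each is 300 bases long, most of them before the start site, from RefSeq on build GRCm38.p6, in the direction of the gene, with the element in capitals: the ER stress response element (ERSE, CCAAT and CCACG with 9 free bases between them) in Hspa5 and Pdia6, and the core of the heat shock element (HSE, GAANNTTC or TTCNNGAA) in Hspa1b and Hspb1.
Hspa5 (chr2:34771840-34772139, strand +): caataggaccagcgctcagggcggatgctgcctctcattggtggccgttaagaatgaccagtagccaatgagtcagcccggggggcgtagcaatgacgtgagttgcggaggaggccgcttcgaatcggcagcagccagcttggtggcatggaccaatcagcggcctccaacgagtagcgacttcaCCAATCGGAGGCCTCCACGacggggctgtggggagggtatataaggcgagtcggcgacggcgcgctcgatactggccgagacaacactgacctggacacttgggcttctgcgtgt
Pdia6 (chr12:17266339-17266638, strand +): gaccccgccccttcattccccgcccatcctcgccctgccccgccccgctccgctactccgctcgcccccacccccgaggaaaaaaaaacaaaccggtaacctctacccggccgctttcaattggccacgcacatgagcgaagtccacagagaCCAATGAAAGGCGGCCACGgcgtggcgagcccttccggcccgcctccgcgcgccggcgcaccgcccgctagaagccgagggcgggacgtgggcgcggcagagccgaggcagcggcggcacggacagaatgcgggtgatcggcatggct
Hspa1b (chr17:34959189-34959488, strand -): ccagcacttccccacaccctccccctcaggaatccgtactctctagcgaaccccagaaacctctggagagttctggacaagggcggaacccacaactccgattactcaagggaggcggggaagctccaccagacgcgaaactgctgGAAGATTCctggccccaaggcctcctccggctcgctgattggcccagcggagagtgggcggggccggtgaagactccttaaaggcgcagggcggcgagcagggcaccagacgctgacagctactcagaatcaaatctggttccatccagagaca
Hspb1 (chr5:135887669-135887968, strand +): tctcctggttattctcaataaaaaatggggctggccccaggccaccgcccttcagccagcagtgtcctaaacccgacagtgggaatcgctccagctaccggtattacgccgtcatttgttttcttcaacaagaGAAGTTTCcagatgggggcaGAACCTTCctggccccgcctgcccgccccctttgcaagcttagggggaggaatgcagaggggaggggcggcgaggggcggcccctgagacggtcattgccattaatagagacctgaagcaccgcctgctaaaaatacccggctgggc
Searched on both strands, ERSE was present in 6 of 23 list members with a promoter in the table (26.1%) and in 0.137% of 27025 genes. The HSE core was present in 8 of 23 (34.8%) and in 17.0% of genes. Members with ERSE had a median strain difference of 0.30 and those without it 0.27, and for HSE the medians were 0.22 and 0.29. For each element, members with it and members without it were higher by similar amounts. The members without ERSE include those with HSE, and the reverse. Members with neither element were not compared as a group.

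Interferon-stimulated genes were higher in SAMP8 control by small amounts. Of 31 measured, 29 were above 0, against 47.6% of all genes, with a median of 0.19. Only 1 was past 0.5, against 0.67% of all genes. Ifit1, which binds foreign RNA caps, read 3.07 in SAMR1, 3.65 in SAMP8 control and 3.49 with STEE, a strain difference of 0.58 at signals below the median of the array. Ifit3 (0.47) and Irf9 (0.44), a transcription factor of the interferon response, followed. Irf1 (-0.17) and Mx2 (-0.06) were below 0. B2m, the light chain of MHC class I, was higher by 0.51, and 17 MHC and antigen presentation genes had a median of -0.06.

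The interferon-stimulated response element (ISRE, GAAA and GAAA with 2 free bases between them, or TTTC and TTTC on the other strand) is shown in capitals in the start-site regions of the leading members.
Ifit1 (chr19:34640639-34640938, strand +): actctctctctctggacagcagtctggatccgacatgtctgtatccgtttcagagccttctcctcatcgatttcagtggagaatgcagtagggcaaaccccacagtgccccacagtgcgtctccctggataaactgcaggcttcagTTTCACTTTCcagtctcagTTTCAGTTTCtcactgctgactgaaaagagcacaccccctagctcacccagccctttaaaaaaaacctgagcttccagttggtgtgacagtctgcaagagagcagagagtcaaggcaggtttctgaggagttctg
Ifit3 (chr19:34583279-34583578, strand +): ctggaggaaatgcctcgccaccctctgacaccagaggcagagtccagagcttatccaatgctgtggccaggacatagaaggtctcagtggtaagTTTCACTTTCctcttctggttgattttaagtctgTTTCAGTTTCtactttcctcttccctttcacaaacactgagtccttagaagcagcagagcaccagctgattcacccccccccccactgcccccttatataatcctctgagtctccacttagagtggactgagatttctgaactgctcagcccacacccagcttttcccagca
It was found in 15 of 23 list members with a promoter (65.2%) and in 3.99% of all genes. Members with it had a median strain difference of 0.20, and those without it 0.18.

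Activity-dependent genes were mixed. Of 25 immediate-early genes, which neurons switch on within minutes of firing, 15 were above 0 and 10 below, with 5 past 0.5 and 1 past -0.5, against 0.67% and 0.559% of all genes. Klf10 read 5.60 in SAMR1, 6.47 in SAMP8 control and 5.51 with STEE, and the synaptic gene Arc read 7.64, 8.36 and 7.23. Fosl2 was higher by 0.76, Egr3 by 0.61 and Ptgs2 by 0.55, and Klf4 was lower (-0.51). As medians over their probe sets these differences were 0.405, 0.305, 0.485 and -0.225, none of them past 0.5. Klf10 and Arc were read from 1 probe set each. Fos (0.15), Npas4 (-0.01) and Junb (-0.18) were nearer to equality between the strains. The clock gene Per2 was higher by 0.61 at its probe set of highest signal, with a median of 0.22 over its 3 probe sets, and the other 17 clock genes were within 0.5.

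Genes named for ageing and neurodegeneration showed few differences of this size, as did genes at large, of which 1.23% were past 0.5 in either direction. At that share, lists of this length would hold few or none, so the counts are not particular to these genes. None of 23 amyloid and tau genes was past 0.5 (median 0.00): App differed by 0.09, Mapt by 0.01 and Apoe by 0.00. None of 38 antioxidant and glutathione genes was past 0.5 either. Of these, 24 were below and 12 above 0, against 48.6% and 47.6% of all genes, among them catalase (Cat) at -0.26, Gstt1 at -0.34 and Sod1 at -0.07. Of 19 senescence and p53 genes, only Cdkn1a, the cell-cycle inhibitor p21, was past 0.5 (6.09 in SAMR1, 6.68 in SAMP8 control), while Cdkn2a, the p16 locus, read 2.71 and 2.84 at the low end of the scale. The neurotrophin gene Bdnf was higher by 0.26 and its receptor gene Ntrk2 by 0.20. DNA repair (24 genes, median -0.04) and autophagy and lysosome genes (25 genes, median 0.07) had none past 0.5.

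Gene families defined by their symbols mostly lay at equality, as did genes at large, of which 1.23% were past 0.5 in either direction. Of 34 families, 20 with 670 genes in all had no gene past 0.5, among them cytosolic ribosomal proteins, complex I subunits, proteasome subunits, collagens and olfactory receptors. Some of these leaned one way by small amounts: 40 of 52 cytosolic ribosomal protein genes were below 0 (median -0.06), and so were 14 of 18 glutathione S-transferases (median -0.12, lowest Gstm1 at -0.42). Long noncoding and small nucleolar host transcripts had 14 of 15 below 0, with a median of -0.21. Neat1, which builds the paraspeckles of the nucleus, and the imprinted transcript Rian were both at -0.55 at their probe sets of highest signal, with medians over all probe sets of -0.33 and -0.24.

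Among larger families, solute carriers had 2 of 348 genes past 0.5 and 5 past -0.5, against 0.67% and 0.559% of all genes, so that the count of higher members was near the background. Slc6a11, an astrocyte GABA transporter, was lower by 0.86, and Slc16a7, a monocarboxylate transporter of neurons, was higher by 0.76. Potassium channels had 3 of 86 past 0.5, Kcnt2 (0.72), Kcnk1 (0.64) and Kcnf1 (0.61), and Kcnn2 past -0.5 (-0.54). Zinc finger genes had 2 of 326 past 0.5 and 3 past -0.5, led by Zfp551 (-1.13) and Zfp58 (-0.83). Predicted and RIKEN genes held 16 of 3607 past 0.5 and 16 past -0.5, or 0.887% together, against 1.23% of all genes.

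Probe sets of 1 gene often disagreed in size. Of 302 genes with 2 or more probe sets and at least 1 past 0.5, all probe sets had the same sign in 163 (54.0%), and a second probe set was past 0.5 in the same direction in 49 (16.2%). Counted from the gene's probe set of highest signal, 138 of the 255 genes past 0.5 had other probe sets, 249 in all. Of these, 186 (74.7%) had the same direction, 59 the opposite and 4 no difference, and 44 were past 0.5 as well. The share in the same direction was 74.4% of 121 at or above the median signal and 75.0% of 128 below it, but their median difference in the gene's direction was 0.29 and 0.12.

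**Figure D4:**
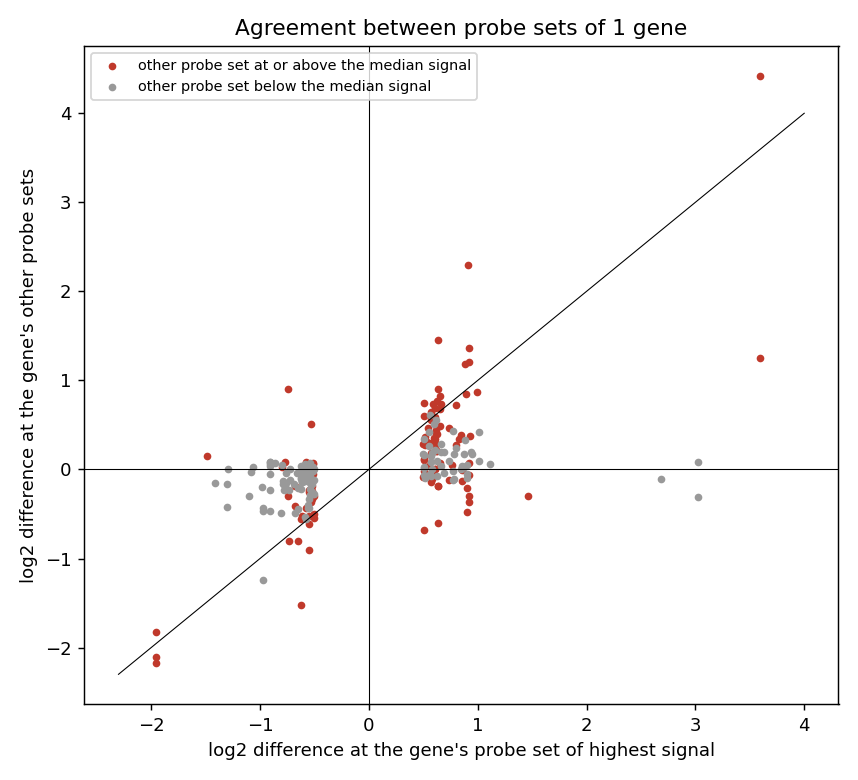
Log2 difference (SAMP8 control minus SAMR1) at the probe set of highest signal (horizontal axis) against that at each of 249 other probe sets of the same gene, for 138 genes past 0.5; the line marks equality. Of the others, 186 share the direction, and most lie nearer to 0 than the line.

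Galc and Soga3 show how far a gene's value can rest on 1 probe set. The 2 other Galc probe sets differed by -0.31 and 0.08, at signals no higher than 3.27 in any group, and the other Soga3 probe set by -0.11 at 4.16 in SAMR1 and 4.05 in SAMP8 control. Vps52 went in opposite directions at its 2 probe sets (1.46 and -0.30), and BC003331 did so as well (-1.49 and 0.15). For Auh the 5 other probe sets ranged from -0.23 to 0.08. Sequence differences between the strains under the probes were not tested.

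Other genes had the same reading at every probe set. In 20 genes with 2 or more, all were past 0.5 in the same direction, 16 higher and 4 lower in SAMP8 control. Ttr was lower at all 4 of its probe sets, by 1.82 to 2.17, and Slc17a6 at both (-0.73 and -0.80). Meis2, a homeobox factor of striatal and other neurons, was higher at all 4, by 0.57 to 0.64. Drd1a (0.85 and 0.89), Cdkn1a (0.59 and 0.73) and Abcb1a (0.91 and 2.30) were higher at both of theirs. In 5 genes, probe sets were past 0.5 in both directions: Adamts4 (-0.74 and 0.90), Ggps1 (-0.60 to 1.45), the MHC class I gene H2-D1 (-1.14 to 0.88), Hecw1 (-0.68 to 0.51) and Myo6 (-0.53 to 0.51).

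Genes past 0.5 were sometimes next to each other on the chromosome. In the gene order of RefSeq on GRCm38.p6, which held 18400 of the 20750 genes, 231 genes were past 0.5 (1.26%), and 19 of them (8.23%) had a directly adjacent measured gene that was past 0.5 too. A gene was counted when the neighbour on either side was past 0.5, so the share of single genes, 1.26%, is not the background of the 8.23%. The 19 genes formed 10 pairs, 8 of them in the same direction. Oxt and Avp, which are paired hormone genes, were both lower, as were Zfp551 and Zfp606. Soga3 lay next to 9330159F19Rik (0.92), which was higher as well. Some of these rest on 1 probe set of the gene. The other probe set of 9330159F19Rik differed by -0.30 and that of Soga3 by -0.11, and the others of Zfp606 by -0.12 and 0.00.

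A single run reached 3 or more genes. Within 6 neighbouring genes, 5 were past 0.5 and higher in SAMP8 control, among them Rpp25l (0.93), Dctn3 (1.55), the skin chemokine gene Ccl27a (0.97) and Gm13308 (1.67). Galt, the galactose enzyme gene that lies between them, differed by -0.09. Ccl27a read 8.14 in SAMR1, 9.11 in SAMP8 control and 9.37 with STEE, at a probe set whose identifier marks shared probes. Cntfr, just before the run, differed by -0.10.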

How the data were processed

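Cerebral cortex RNA was measured on 6 arrays, 2 for each group, and groups were taken from the sample titles. Probe intensities were summarised by the authors with the RMA algorithm of Affymetrix Expression Console, and their group comparisons came from Transcriptome Analysis Console. The deposited tables hold, for each probe set, the authors' mean log2 signal of each group, a bi-weight average rounded to 2 decimals, with signed fold changes, ANOVA p-values and false discovery rates of their comparisons, which were not used here. No array-level values were used, so there is no SD, interval or test, and the number of arrays limits the precision. The genome build of the probe set annotation is not given in the sources used here, so positions are printed only for the start-site regions, which come from RefSeq on GRCm38.p6, and gene order is from the same build. Of 45077 probe sets, 5694 had no symbol and 1253 several, and both were left out of the gene counts.

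The difference of group means was taken per probe set and per gene (the probe set with the highest mean of the SAMR1 and SAMP8 control signals). The named genes are the 20 with the largest and the 20 with the smallest difference among genes whose mean over the 3 groups reached the median signal, list and family members past 0.5 (up to 6 a list, by size), and genes with probe sets past 0.5 in both directions. Other genes are named as members of the 38 lists or 34 families, as neighbours, or after their values were seen, and some members are not reported here. The members and lists were chosen with earlier results of these data known. Alternatives were the threshold, the filter on signal, centring, the median over probe sets and leaving out probe sets with shared probes. The calculation was tested on simulated data. Python 3.11.15, numpy 2.4.6, pandas 2.3.3 and matplotlib 3.10.9 were used.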

Additional observations from a re-analysis of the deposited data

How the results depend on the processing

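No paired analysis was possible because the tables give group averages, and for the same reason no replicate could be left out in turn. The counts depended on the threshold: at a log2 difference of 1.0, 62 probe sets were higher and 61 lower in SAMP8 control (15 and 21 genes), and at 0.3, 1279 and 1128 probe sets (526 and 471 genes). The share of genes whose probe sets all had 1 sign was 47.1% at 1.0 against 54.0% at 0.5. With the median over probe sets in place of the probe set of highest signal, 103 genes were higher and 85 lower. At the threshold of 0.5, a filter on signal, centring of the groups and leaving out probe sets with shared probes kept the counts of probe sets and genes within 1.5 times. Without probe sets with shared probes, the share of genes with 1 sign was 54.2%, and over probe sets of higher signal 58.3%. Of 101 named genes, 58 were within 0.1 of their value when the median over probe sets was taken. The 58 include every named gene with 1 probe set, such as Gm17167 and Avp, whose median is the value itself, so they are no measure of agreement. Of the rest, 41 moved by more and 2 changed sign, Adamts4 to 0.08 and H2-D1 to 0.12. Of 38 list medians, 37 stayed within 0.1, and that of the striatal list went from 0.72 to 0.58, with 6 of 11 genes past 0.5. Signals below the array median of 4.15 in at least 1 group limit the size of differences such as those of Pmch, Avp, Slc18a2, Prox1, Dsp and Ifit1.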

Other observations

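Probe sets that name several genes or none were left out of the gene counts, and some held differences as large as those of named genes. Past 0.5, 26 of 1253 probe sets with several symbols were higher and 8 lower in SAMP8 control, against 0.745% and 0.575% of all probe sets. Of 5694 without a symbol, 32 were higher and 45 lower, which together is near the 1.32% of all probe sets. A probe set shared by the chemokine gene Ccl19 and predicted genes such as Gm13309 read 4.61 in SAMR1, 8.28 in SAMP8 control and 8.52 with STEE, a strain difference of 3.67. Further probe sets of predicted genes were higher by 3.73 (Gm10590 and Gm2192), 3.77 and 3.85 (Gm21093 and others). The probe set shared by Homer1, a postsynaptic scaffold gene, and C330006P03Rik read 7.58 and 9.39, a difference of 1.81, while the Homer1 probe set of highest signal differed by 0.30. Xlr4a, Xlr4b and Xlr4c, which share a probe set, read 3.16 in SAMR1, 4.70 in SAMP8 control and 3.95 with STEE. The probe set shared by Uchl3 and Uchl4, ubiquitin hydrolase genes, was lower by 0.98. Among those without a symbol, 1435579_PM_at read 3.62 in SAMR1 and 8.56 in SAMP8 control, and 1456216_PM_at read 9.51 and 7.10.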
